A study of Mus musculus with 48 samples.

Results

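The genes described here are 8 classical cadherins and their relatives (Cdh1, Cdh2, Cdh3, Cdh4, Cdh5, Cdh6, Cdh11 and Cdh13) and Ctnnb1, the gene of beta-catenin. The 9 genes were chosen by name, with earlier results of these data known, and the contrast between the 2 cell lines of the study, in which Cdh2, the gene of N-cadherin, differs widely, was among those results. That contrast is therefore given for the members as a description with no test. Of the 9, 8 had a row among the 27281 genes of the deposited table, and Cdh4 was not analysed here. Of these 8, 7 reached the minimum mean of 1 on the log2 scale and were tested among 13409 genes. Cdh5 was below it and is described by its values.

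Cadherins are transmembrane proteins that hold neighbouring cells together through calcium-dependent contacts between their outer domains. Inside the cell, the tail of a classical cadherin binds beta-catenin or plakoglobin and p120-catenin, and alpha-catenin and vinculin link this complex to actin. Beta-catenin that is not bound to a cadherin is degraded by a destruction complex or, on Wnt signalling, acts with TCF and LEF factors on transcription. N-cadherin is the main classical cadherin of neural progenitors, whereas E-cadherin (Cdh1) and P-cadherin (Cdh3) are typical of epithelia and VE-cadherin (Cdh5) of endothelium. OB-cadherin (Cdh11) and K-cadherin (Cdh6) belong to the type II cadherins. T-cadherin (Cdh13) has no cytoplasmic tail and is held to the membrane by a lipid anchor, so it is a cadherin outside the classical group in the strict sense.

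RNA-Seq was performed on 48 samples, 3 for each of 16 conditions, from murine striatal progenitor lines that are conditionally immortalized. STHdhQ7 cells carry wild-type huntingtin and STHdhQ111 cells are homozygous for a mutant huntingtin knock-in with an expanded polyglutamine stretch. All cells were kept without serum for 24 hours. STHdhQ7 and STHdhQ111 cells received vehicle, and STHdhQ111 cells received 1 of 14 compounds that protect them from death without serum. By the labels, DKI (diacylglycerol kinase inhibitor II), meclizine, selisistat, loxapine and cyproheptadine were used at 10 µM, pizotifen at 5 µM and cysteamine at 250 µM. The highest doses were those of DOP (4-deoxypyridoxine), at 4 mM, and of sodium butyrate, at 1 mM. The lowest were those of haloperidol and nicotinamide, both at 0.5 nM, of nortriptyline at 1 nM, of trichostatin A at 10 nM and of fingolimod phosphate at 250 nM. Each genotype was represented by a single line, so genotype and line cannot be told apart. By the labels the 3 samples of a condition were collected on 3 days, or for DKI and cyproheptadine 1 on day 2 and 2 at different times of day 3. The sources used here do not say whether they came from separate thaws or passages of a line, and p-values measure the spread between these samples only.

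The values are normalized abundances on the log2 scale as the authors deposited them. Read counts and the depth of each sample are unknown, and no counting error can be given. The transformation behind the values is not given in the sources used here. If it draws low values together, as some logarithms for counts do, 2 to the power of a value is not proportional to abundance for genes with low values, and their differences are understated. Genes with means of 1 to 3 varied less in this unit than genes with higher means. For genes with means of 1 to 3 the median SD across the samples was 0.079, and for genes with means of 6 and over it was 0.14. Differences of the low members Cdh1, Cdh3 and Cdh6 are therefore not set against those of the high members.

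Marker genes were examined to describe the cells. Of 10 markers of neural progenitors, 9 were in the table, and the most abundant was Vim, at 15.60 in STHdhQ7 and 15.42 in STHdhQ111 cells with vehicle. Nes and Sox2, which are more specific, were at 10.95 and 8.91 in STHdhQ7 but at 4.96 and 4.81 in STHdhQ111 cells. Pax6 was at 5.41 and 2.81, and Msi1 at 4.82 and 4.23. Dlx1 and Dlx2, homeobox genes of the ganglionic eminences, were at similar levels in both lines, 5.99 and 5.30 in STHdhQ7 and 5.84 and 5.42 in STHdhQ111 cells. Of 6 markers of striatal neurons in the table, 4 had means under 1, Drd1, Bcl11b, Gad1 and Gad2, and the most abundant was Foxp1. Of 5 neuron markers, 3 had means under 1, and the most abundant was Map2. Of 8 fibroblast markers, 6 had means of at least 6, led by Col1a1, at 14.66 in STHdhQ7 and 14.64 in STHdhQ111 cells. Of 11 epithelial markers, 3 had means under 1 (Cldn3, Cldn7 and Esrp1), and Dsp was the most abundant. Of 5 endothelial markers in the table, Pecam1 alone had a mean of at least 6. Of 4 glial markers, Slc1a3 was the most abundant and Gfap had a mean under 1. Of 4 leukocyte markers, Ptprc was at 7.86 in STHdhQ7 and 10.59 in STHdhQ111 cells, and Aif1 and Cx3cr1 had means under 1. In both lines Vim, Col1a1 and Col3a1 were thus high and Dlx1 and Dlx2 had intermediate values, whereas Nes, Sox2 and Pax6 had lower means in STHdhQ111 cells. Markers within the fibroblast and epithelial lists differed in both directions. Col1a2 was at 10.34 in STHdhQ7 against 13.03 in STHdhQ111 cells and Pdgfra at 7.71 against 9.04, while Col3a1 was at 12.54 against 12.46 and Pdgfrb at 10.74 against 10.78. Dsp was at 9.24 against 10.63 and Esrp2 at 4.84 against 5.68, while Krt19 was at 6.57 against 6.04 and Krt8 at 3.24 against 2.76. The neuron markers Tubb3 and Map2 were higher in STHdhQ7 cells, at 5.72 against 4.52 and 8.61 against 8.40. Of the leukocyte markers, Ptprc was lower in STHdhQ7 cells, as given above, and Cd68 was at 6.13 against 6.16. These differences between markers were not tested.

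Single libraries stood apart from their conditions. Over the 75 tested genes that were more than 2 higher on the log2 scale in STHdhQ7 than in STHdhQ111 cells, replicate 2 of haloperidol had a median deviation of 0.80 from the mean of the other STHdhQ111 samples. The next highest STHdhQ111 sample, replicate 1 of trichostatin A, deviated by 0.22. Over the 53 genes more than 2 lower in STHdhQ7 cells, the median deviation of haloperidol replicate 2 was -0.001. Over these 53 genes the largest deviation was that of DKI replicate 1, at -0.69, beside -0.25 and -0.30 in the other DKI samples. Replicates 1 and 3 of cyproheptadine were at -0.47 and -0.46, and its replicate 2 at -0.24. In haloperidol replicate 2, Cdh2 and Cdh11 were the highest of the condition. So were the progenitor markers Nes, at 7.14 beside 4.88 and 5.04, Sox2, at 5.92 beside 4.99 and 4.97, and Pax6, at 3.93 beside 3.04 and 2.80. Vim, at 15.49 beside 15.56 and 15.43, and Dlx1, at 5.76 beside 5.82 and 5.86, were not. The summed linear level of the progenitor markers, which Vim dominates, was 48554, 46343 and 44194 in the 3 haloperidol samples. Cadherin values are given below with this library left out where they rest on it, and the part of the markers in them was not tested.

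Between the lines, N-cadherin RNA was higher in STHdhQ7 cells, and the values of both lines were far apart. Cdh2 (ENSMUSG00000024304) spans 16588877 to 16809246 of chromosome 18 (GRCm38, minus strand), and the annotated antisense gene Gm15485 overlaps it. The library kit keeps the strand of the RNA, but whether strand was used in counting is not given in the sources used here. Without it, reads of a gene and of a gene on its other strand could not be told apart. The log2 values of Cdh2 were 11.70, 11.92 and 12.02 in the STHdhQ7 samples and 10.23, 10.18 and 10.07 in the STHdhQ111 vehicle samples. Each STHdhQ7 sample thus lay above each STHdhQ111 sample. The means were 11.88 ± 0.17 (SD, n = 3) and 10.16 ± 0.08 (SD, n = 3), a difference of 1.72 on the log2 scale, or 3.30-fold. This contrast was among the values the gene was selected on, and no test is given.

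The type II cadherin gene Cdh11 had an even larger difference in the same contrast. Cdh11 (ENSMUSG00000031673, chromosome 8, 102632095 to 102785642, minus strand) was at 7.59, 8.26 and 8.03 in STHdhQ7 samples and at 5.61, 5.64 and 5.71 in STHdhQ111 vehicle samples. The means, 7.96 ± 0.34 and 5.65 ± 0.05 (SD, n = 3 each), differed by 2.31, or 4.95-fold. Cdh13 (ENSMUSG00000031841, chromosome 8, 118283733 to 119324921, plus strand), which the antisense genes Gm45721 and Gm45720, the pseudogene Gm45722 and the small RNA gene Gm24035 overlap on the other strand, was at 9.79, 10.18 and 10.22 in STHdhQ7 samples against 9.41, 9.36 and 9.43 in STHdhQ111 vehicle samples, a difference of 0.66. For both genes all STHdhQ7 values lay above all values of the other line. STHdhQ7 replicate 1 was the lowest STHdhQ7 sample for Cdh2, Cdh11 and Cdh13. Annotated genes on the same strand also overlap Cdh11 (Gm45257, 9430099M06Rik, Gm26301 and Gm45258), Cdh13 (Gm22999) and Ctnnb1 (Mir7090). Strand cannot separate the reads of such pairs. Summed marker levels, each carried mainly by the most abundant gene or genes of its list, also separated the lines. The STHdhQ7 samples lay below those of STHdhQ111 vehicle for leukocyte markers (234 to 400 against 1485 to 1789), epithelial markers (718 to 891 against 1639 to 1967), striatal neuron markers (485 to 676 against 958 to 1095) and glial markers (76 to 120 against 162 to 178). They lay above them for neural progenitor markers (48992 to 54690 against 42794 to 46785), and overlapped for neuron, endothelial and fibroblast markers. The leukocyte sum follows Ptprc, the epithelial sum Dsp, the striatal neuron sum Foxp1, the glial sum Slc1a3 and the progenitor sum Vim, so these are differences of single genes and do not show that a whole list moved. The part of these markers in the cadherin differences was not tested.

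Beta-catenin RNA was level between the lines. Ctnnb1 (ENSMUSG00000006932, chromosome 9, 120929216 to 120960507, plus strand), which Ulk4 and the antisense gene 4930593C16Rik overlap on the other strand, was at 12.76, 12.79 and 12.83 in STHdhQ7 and 12.83, 12.81 and 12.77 in STHdhQ111 vehicle samples. The ranges overlapped, and the difference was -0.01. Among the members with low values, Cdh1 (ENSMUSG00000000303) was at 2.93 ± 0.16 and 2.50 ± 0.04, Cdh3 (ENSMUSG00000061048) at 2.90 ± 0.02 and 2.70 ± 0.07, and Cdh6 (ENSMUSG00000039385) at 2.26 ± 0.07 and 2.26 ± 0.04 (SD, n = 3 each) in STHdhQ7 and STHdhQ111 cells. Cdh5 (ENSMUSG00000031871, chromosome 8, 104101625 to 104144511), which the antisense gene Gm29682 overlaps, was at 0.20 ± 0.04 and 0.24 ± 0.04 (SD, n = 3 each), and over all 42 compound-treated samples it lay between 0.18 and 0.27 with a median of 0.23. Every neighbouring pair of conditions overlapped for this endothelial gene, and with no filter on low values it was called for 0 of 14 compounds (limma). Over all genes tested, 29.2% were called higher and 26.6% lower in STHdhQ7 cells, and nothing is read from these shares for the members.

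Levels were compared between genes per length, as 2 to the power of the condition mean divided by the summed length in kb of the annotated exons. In STHdhQ111 vehicle cells this linear level per kb was 1375 for Ctnnb1, 142 for Cdh2, 60 for Cdh13 and 5.66 for Cdh11. It was 1.24 for Cdh1, 1.49 for Cdh3, 0.529 for Cdh6 and 0.281 for Cdh5. In STHdhQ7 vehicle cells it was 1364 for Ctnnb1, 468 for Cdh2, 95.2 for Cdh13 and 28.0 for Cdh11. N-cadherin was thus the most abundant cadherin of the list in both lines, and the order of these 4 genes was the same in both. These levels assume that the values are plain logarithms, which is uncertain for Cdh1, Cdh3, Cdh5 and Cdh6 in particular. Exon length counts all annotated transcripts, and the lengths of those expressed were not measured.

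**Figure D1:**
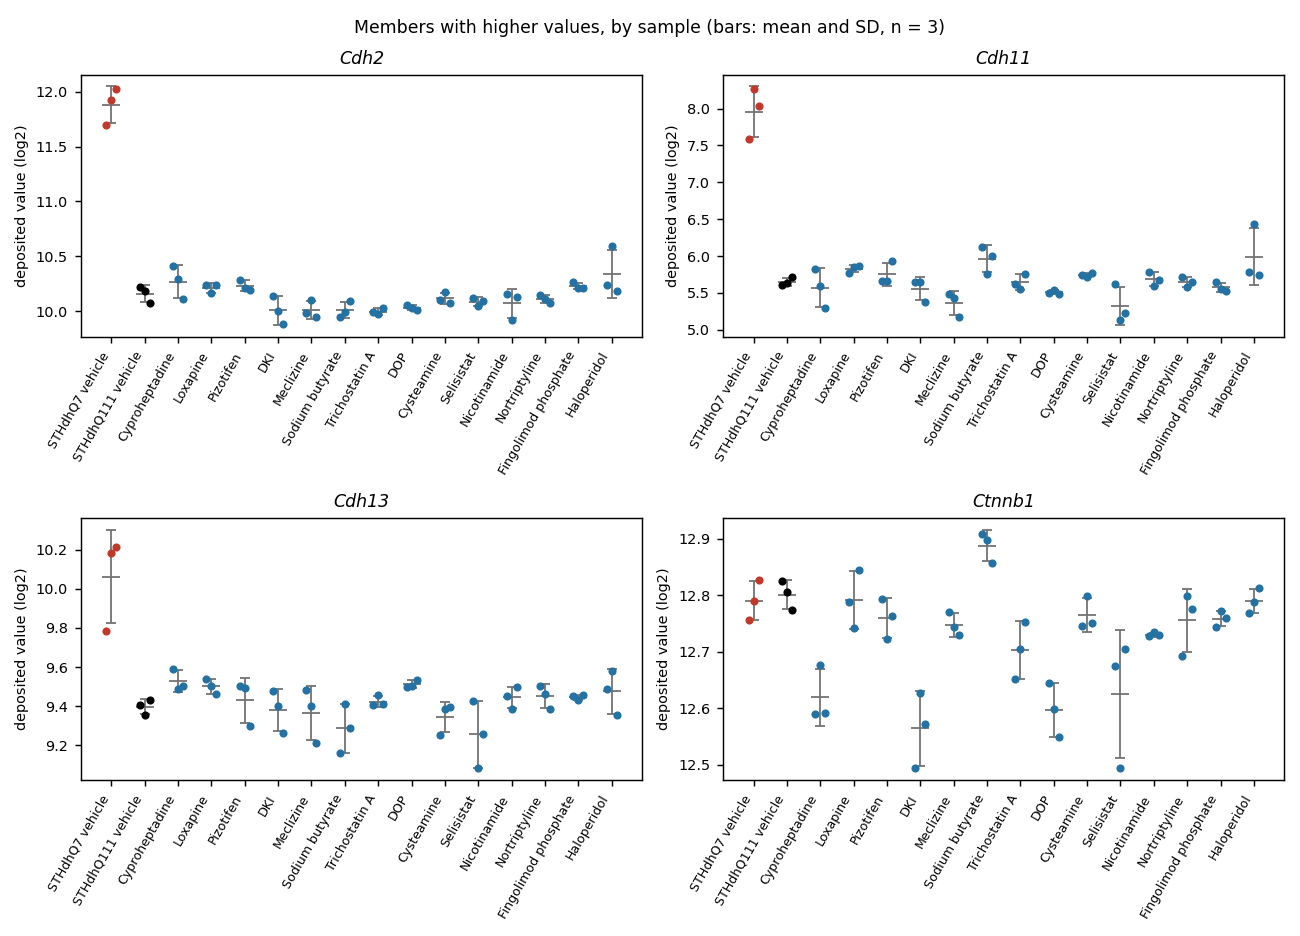
Deposited log2 values (y axis) of Cdh2, Cdh11, Cdh13 and Ctnnb1 in each of the 16 conditions (x axis), with 1 point per sample and the mean and SD of 3 samples as grey bars; the y axes differ between panels and do not start at 0. For Cdh2 the 3 STHdhQ7 samples lie between 11.70 and 12.02, above all STHdhQ111 samples, whose highest is replicate 2 of haloperidol at 10.59.

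With compounds, N-cadherin RNA stayed in a narrow range that did not reach the STHdhQ7 values. Over the 42 compound-treated samples, Cdh2 had a lowest value of 9.88 (replicate 3 of DKI), a median of 10.11 and a highest value of 10.59 (replicate 2 of haloperidol). The lowest STHdhQ7 sample was at 11.70. In order of the mean, haloperidol was highest at 10.34 ± 0.22, followed by cyproheptadine at 10.27 ± 0.15, pizotifen at 10.23 ± 0.05, fingolimod phosphate at 10.23 ± 0.03 and loxapine at 10.22 ± 0.05 (SD, n = 3 each). The STHdhQ111 vehicle control, at 10.16, came next. Below it came cysteamine at 10.12 ± 0.05, nortriptyline at 10.11 ± 0.04, selisistat at 10.09 ± 0.04, nicotinamide at 10.07 ± 0.13 and DOP at 10.03 ± 0.02 (SD, n = 3 each). The lowest were sodium butyrate at 10.01 ± 0.07, meclizine at 10.01 ± 0.08, DKI at 10.01 ± 0.13 and trichostatin A at 10.00 ± 0.03 (SD, n = 3 each). Apart from the step between STHdhQ7 cells and haloperidol, each condition overlapped its neighbour in this order, and no such step exceeded the SDs of both neighbours. The place of haloperidol rests on its replicate 2, since its replicates 1 and 3, at 10.24 and 10.18, lay below the cyproheptadine mean.

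Each compound was compared with the STHdhQ111 vehicle control in a linear model over all samples with collection day as a term (limma, Benjamini-Hochberg adjustment over all genes tested, called at an adjusted p under 0.05). These comparisons share the vehicle samples with the contrast that selected the members. Over all genes tested, 42.3% were called for DKI, 37.5% for sodium butyrate, 35.6% for cyproheptadine, 26.8% for meclizine, 21.9% for loxapine, 20.1% for DOP and 17.9% for pizotifen. The share was 13.1% for trichostatin A, 10.4% for nicotinamide, 7.83% for cysteamine, 3.83% for nortriptyline, 0.515% for selisistat, 0.0597% for fingolimod phosphate and 0% for haloperidol. Several of these counts rest on single libraries, vehicle samples among them. Without replicate 1 of vehicle 171 genes were called for cysteamine (1050 with it), 268 for nicotinamide (1396), 76 for nortriptyline (513), 1715 for loxapine (2938), 1376 for pizotifen (2404), 1548 for DOP (2697), 931 for trichostatin A (1755) and 3 for selisistat (69). Without replicate 2 of vehicle the counts were 401 for cysteamine, 641 for nicotinamide, 205 for nortriptyline, 1775 for DOP, 1120 for trichostatin A and 9 for selisistat, and without its replicate 3 they were 784 for nortriptyline and 128 for selisistat. Samples of the compounds mattered as well. The count was 1540 for DOP without its replicate 2, 1909 for loxapine without its replicate 2, 384 for nicotinamide without its replicate 2 and 744 for trichostatin A without its replicate 1. It was 655 and 182 for cysteamine without its replicates 1 and 3, 114 and 148 for nortriptyline without its replicates 1 and 3, and 293, 0 and 1151 for selisistat without its replicates 1, 2 and 3. The counts of DKI, sodium butyrate, cyproheptadine and meclizine moved by less than 1.5 times with any sample left out. For fingolimod phosphate 0 genes were called without its replicate 3 or replicate 1 of vehicle and 135 without replicate 3 of vehicle, and for haloperidol 34 were called without its replicate 1 and 8 without its replicate 3.

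Of the 98 pairs of a tested member and a compound, 6 were called, 3 higher and 3 lower. They were Ctnnb1 with DKI, DOP and cyproheptadine, Cdh6 with cyproheptadine, and Cdh1 and Cdh3 with sodium butyrate. Over all genes tested, 42.3%, 20.1%, 35.6% and 37.5% were called for DKI, DOP, cyproheptadine and sodium butyrate. No member was called for the other compounds, beside 0% of all genes for haloperidol to 26.8% for meclizine. For no compound was the share of members called above that of all genes. Cdh2 was called for 0 of 14 compounds with limma, and 1 was at an unadjusted p under 0.05. Its log2 fold changes ran from -0.16 for trichostatin A to 0.18 for haloperidol, and over all compounds the 95% intervals lay between -0.33 and 0.35. Without replicate 2 of haloperidol the value for haloperidol was 0.05. No call of Cdh2 against vehicle was made with any of the 48 samples left out.

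The other cadherins with higher values gave no call against vehicle either. Cdh13 was called for 0 of 14 compounds with limma, with 0 at an unadjusted p under 0.05, and its log2 fold changes ran from -0.14 for selisistat to 0.13 for cyproheptadine. Cdh11 was called for 0 of 14 compounds with limma, with 3 at an unadjusted p under 0.05. Its fold changes were more spread, from -0.33 for selisistat to 0.34 for haloperidol, and the smallest adjusted p was 0.0921. The value for haloperidol was 0.10 without its replicate 2, which was at 6.44 beside 5.78 and 5.75 in the other haloperidol samples. Cdh11 was called with sodium butyrate when replicate 2 of that compound was left out (0.42, adjusted p = 0.0421, limma). In a fit restricted to the samples compared it was called for sodium butyrate (0.31, adjusted p = 0.0198, limma) and for meclizine (-0.29, adjusted p = 0.0318, limma). In the order of means, Cdh11 was at 5.99 ± 0.39 with haloperidol, 5.96 ± 0.18 with sodium butyrate and 5.65 ± 0.05 with vehicle, and was lowest at 5.36 ± 0.17 with meclizine and 5.33 ± 0.26 with selisistat (SD, n = 3 each). The neighbours in this order overlapped, apart from the STHdhQ7 cells above haloperidol and DOP (5.51 ± 0.03) above meclizine, whose gap of 0.15 did not exceed the SD of meclizine. For Cdh13 all STHdhQ111 condition means lay between 9.26 ± 0.17 (selisistat) and 9.53 ± 0.05 (cyproheptadine), and neighbours overlapped.

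**Figure D2:**
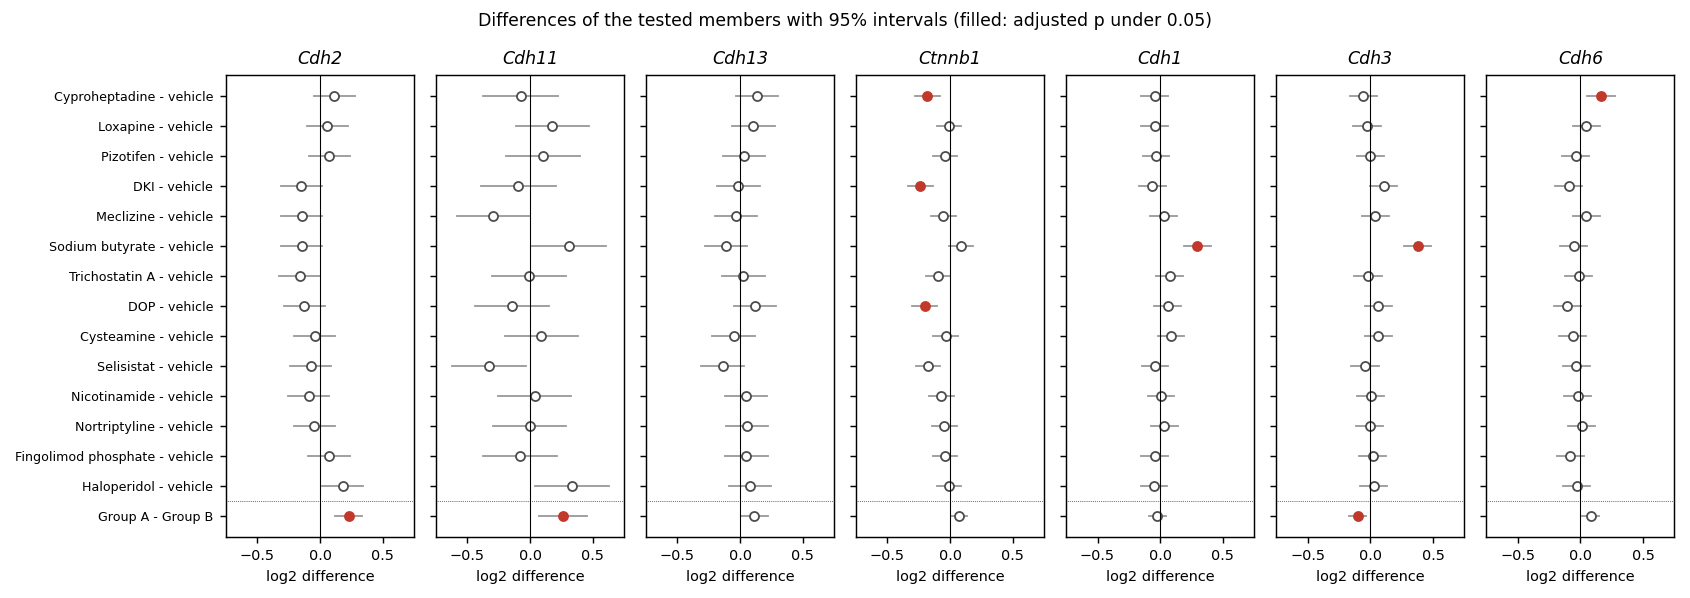
Log2 differences (x axis) of the 7 tested members for each compound against the STHdhQ111 vehicle control and, under the dotted line, for Group A against Group B, with 95% intervals from limma as lines; filled points have an adjusted p under 0.05. Filled points against vehicle are 3 for Ctnnb1 and 1 each for Cdh1, Cdh3 and Cdh6, and for Cdh2, Cdh11 and Cdh3 the difference between the groups of compounds is filled.

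Ctnnb1 fell with DKI, DOP and cyproheptadine. It was at 12.49, 12.63 and 12.57 with DKI, at 12.64, 12.60 and 12.55 with DOP and at 12.59, 12.68 and 12.59 with cyproheptadine, against 12.83, 12.81 and 12.77 with vehicle. All 9 of these treated samples lay below all vehicle samples. On the log2 scale Ctnnb1 fell by 0.24 with DKI (SE 0.049, limma adjusted p = 0.000126), by 0.20 with DOP (SE 0.048, limma adjusted p = 0.00238) and by 0.18 with cyproheptadine (SE 0.049, limma adjusted p = 0.00314). Within collection days, the difference from the vehicle sample of that day was -0.18, -0.21 and -0.22 for DOP on days 1, 2 and 3. It was -0.18 and -0.24 for DKI and -0.13 and -0.18 for cyproheptadine on days 2 and 3, and no sample of these 2 compounds was collected on day 1. In a fit restricted to the 6 samples compared, none of the 3 was called by limma, at adjusted p = 0.121 for DKI, 0.0904 for DOP and 0.0735 for cyproheptadine, while the fold changes were -0.21, -0.20 and -0.16.

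Summed marker levels moved with these compounds as well. With DKI and cyproheptadine all samples lay below vehicle for 5 of the 8 lists. For fibroblast markers they were at 21223 to 25619 and 26204 to 29554 against 38996 to 44366, and for neural progenitor markers at 28418 to 34123 and 35486 to 37418 against 42794 to 46785. The others were epithelial markers, at 1035 to 1296 and 1207 to 1391 against 1639 to 1967, striatal neuron markers, at 820 to 918 and 828 to 912 against 958 to 1095, and glial markers, at 112 to 134 and 112 to 132 against 162 to 178. Neuron, endothelial and leukocyte markers overlapped with vehicle. DOP had another pattern, with progenitor (50090 to 51109), striatal neuron (1113 to 1203) and glial sums (186 to 200) above vehicle, leukocyte sums (1417 to 1450) below the 1485 to 1789 of vehicle, and the other lists overlapping or level. The part of these markers in the Ctnnb1 values was not tested.

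Selisistat gave a Ctnnb1 value of similar size that did not pass, with samples at 12.67, 12.50 and 12.71 and a difference from vehicle of -0.18 on the log2 scale (SE 0.048, limma adjusted p = 0.0764). It was called by limma without replicate 1 (-0.20, adjusted p = 0.0417) and without replicate 3 (-0.22, adjusted p = 0.0115). The value rests on replicate 2, the lowest sample, without which it was -0.11 (limma adjusted p = 0.878). This library was also the lowest STHdhQ111 sample for Cdh11, at 5.13, and for Cdh13, at 9.08. Its summed fibroblast markers were at 55532, beside 38875 and 40338 in replicates 1 and 3 of selisistat. In the order of means Ctnnb1 was highest with sodium butyrate, at 12.89 ± 0.03 (SD, n = 3), which lay above the next condition, the STHdhQ111 vehicle control at 12.80 ± 0.03, by more than the SD of either. From vehicle downward the samples of neighbouring conditions overlapped, down to the 4 lowest, selisistat, cyproheptadine, DOP and DKI.

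DOP and sodium butyrate shared no combination of collection day and time with the vehicle control. They were therefore also compared with nicotinamide and nortriptyline, given at nanomolar doses and collected at the same days and times, a comparison with no vehicle sample in which 10.6% of all genes were called for DOP and 30.8% for sodium butyrate. Ctnnb1 was lower with DOP in it (-0.15 on the log2 scale, SE 0.042, limma adjusted p = 0.0200) and higher with sodium butyrate (0.14, SE 0.042, limma adjusted p = 0.00732). Against vehicle, the value for sodium butyrate had been 0.09 and was not called. No such comparator exists for cyproheptadine, DKI and selisistat.

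Against vehicle, sodium butyrate, an inhibitor of histone deacetylases, was the compound with which the genes of E-cadherin and P-cadherin rose. With some other comparators more compounds were called for each gene, as described with the processing. Cdh1 was at 2.80, 2.81 and 2.78 with sodium butyrate against 2.54, 2.49 and 2.48 with vehicle, and Cdh3 at 3.22, 2.97 and 3.06 against 2.77, 2.71 and 2.63. In both genes the 3 treated samples lay above all other STHdhQ111 samples. On the log2 scale Cdh1 rose by 0.29 (SE 0.052, limma adjusted p = 3.06e-05) and Cdh3 by 0.38 (SE 0.053, limma adjusted p = 6.91e-07). Within collection days 1, 2 and 3 the differences were 0.26, 0.33 and 0.30 for Cdh1 and 0.45, 0.26 and 0.43 for Cdh3. Against nicotinamide and nortriptyline they were 0.27 for Cdh1 (adjusted p = 1.32e-05, limma) and 0.38 for Cdh3 (adjusted p = 4.67e-08, limma). With its 37.5% of genes called, sodium butyrate is a compound with many changes, and 19.6% of all genes rose with it and 17.8% fell.

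Both genes stayed at the low end of the table with sodium butyrate, at means of 2.80 ± 0.02 for Cdh1 and 3.08 ± 0.13 for Cdh3 (SD, n = 3 each). Trichostatin A, which also inhibits histone deacetylases and was given at 10 nM, had 2.58 ± 0.03 for Cdh1 and 2.69 ± 0.05 for Cdh3 (SD, n = 3 each). Against vehicle neither gene was called with trichostatin A, at 0.08 for Cdh1 (limma adjusted p = 0.373) and -0.02 for Cdh3 (limma adjusted p = 0.873). Within collection days 1, 2 and 3 its differences were 0.07, 0.06 and 0.10 for Cdh1 and -0.11, 0.03 and 0.03 for Cdh3. The doses of these inhibitors differ and no difference between them was tested. The summed linear level of the 11 epithelial markers, of which Dsp is the most abundant, was between 1455 and 1709 in the sodium butyrate samples with a median of 1632, and between 1639 and 1967 with a median of 1688 in the vehicle samples. Cldn3, Cldn7 and Esrp1 were at -2.07, 0.19 and -1.35 on the log2 scale with sodium butyrate and at -2.07, 0.08 and -1.36 with vehicle. Krt19 was at 6.98 against 6.04, Epcam at 4.22 against 3.85, Krt18 at 5.01 against 4.63, Krt8 at 2.99 against 2.76 and Ocln at 2.13 against 2.02. Dsp was lower, at 10.40 against 10.63, and Esrp2 and Cldn4 were level, at 5.67 against 5.68 and 1.13 against 1.14. The list thus did not move one way, and these differences were not tested. The summed fibroblast markers, led by Col1a1, were between 47899 and 51926 with sodium butyrate and between 38996 and 44366 with vehicle. Glial markers were also apart, at 207 to 226 against 162 to 178, and the other 6 lists overlapped. Of the progenitor markers, Nes was at 6.25 with sodium butyrate against 4.96 and Msi1 at 4.68 against 4.23, while Dlx1 was at 5.64 against 5.84, Dlx2 at 5.02 against 5.42, Sox2 at 4.77 against 4.81 and Pax6 at 2.83 against 2.81. The part of these markers in the cadherin values was not tested.

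**Figure D3:**
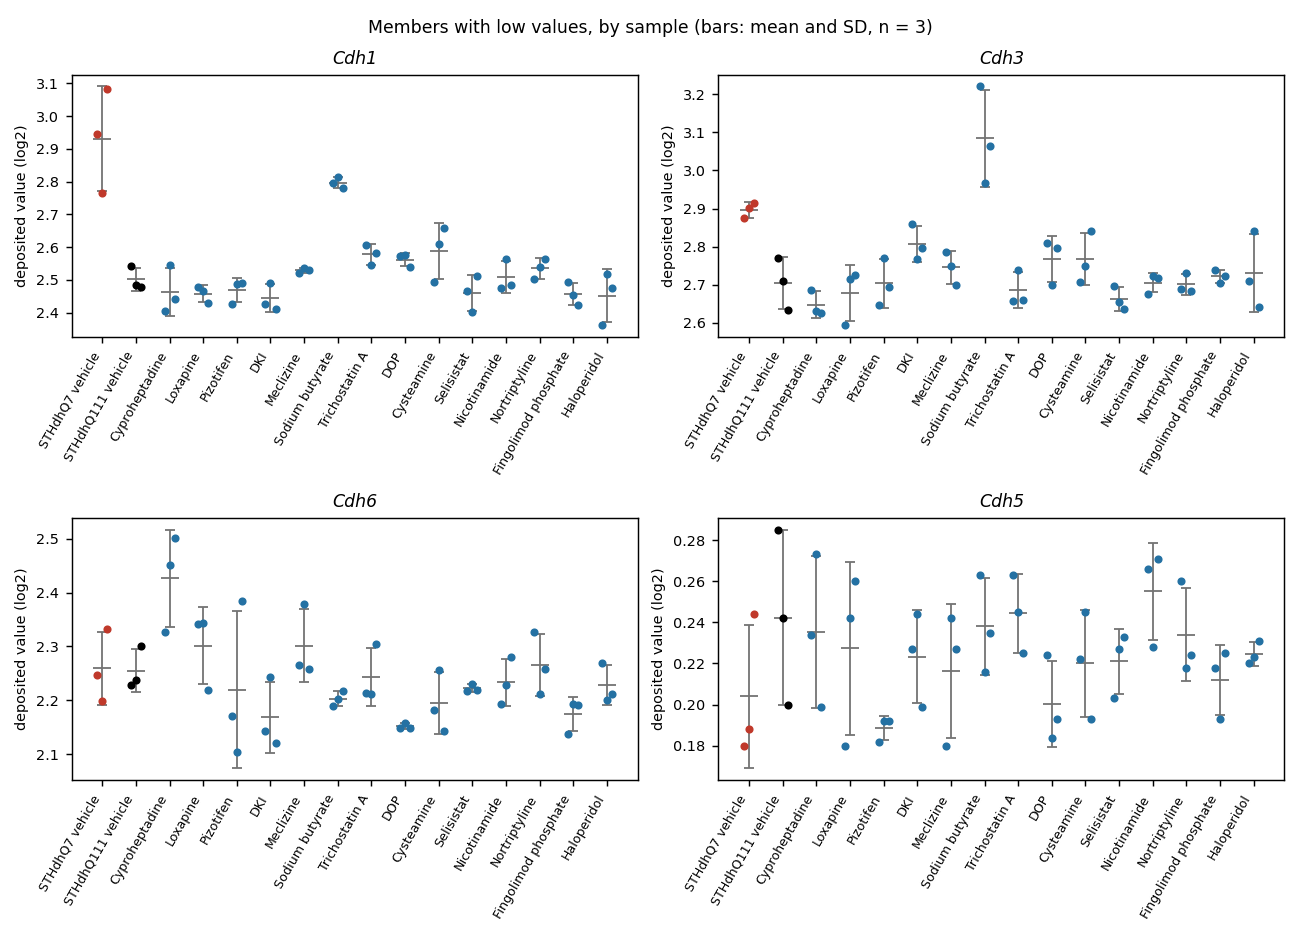
Deposited log2 values (y axis) of Cdh1, Cdh3, Cdh6 and Cdh5 in each of the 16 conditions (x axis), with 1 point per sample and the mean and SD of 3 samples as grey bars; the y axes differ between panels and do not start at 0. The sodium butyrate samples of Cdh1 (2.78 to 2.81) and of Cdh3 (2.97 to 3.22) lie above the other STHdhQ111 samples of these genes.

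Among the genes tested, Cdh3 and Cdh1 are neighbours on chromosome 8 of GRCm38, where 5 of the 8 members with a row lie. The annotated genes Gm10073 and 1110028F18Rik, which were not tested, lie between them. Cdh3 extends from 106510891 to 106557297 and Cdh1 from 106603351 to 106670246, both on the plus strand, with 46.1 kb between them. After these values had been seen, the genes around the pair were described as well. Within 250 kb on either side, 6 other genes were tested. Of these 6, 1 rose with sodium butyrate, 0 fell and 5 were not called (limma), and the 16.7% that rose stand beside 19.6% called higher over all genes, so nothing particular to the region is read from them. The gene that rose was Zfp90, a zinc finger gene upstream of Cdh3, which rose by 0.21 on the log2 scale (limma adjusted p = 0.0265). Tango6, next to Cdh1 on its other side, had a value of 0.04 and was not called, and neither was Has3, at 0.06. Over the 15 STHdhQ111 conditions the condition means of Cdh1 and Cdh3 had a Pearson correlation of 0.81, which was 0.19 over the 14 conditions without sodium butyrate.

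**Figure D4:**
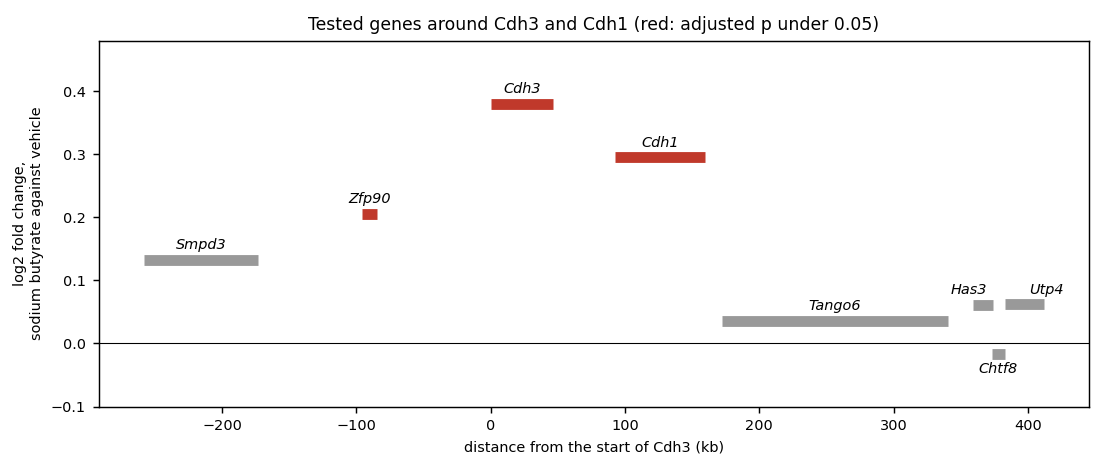
Log2 fold change with sodium butyrate against vehicle (y axis) of the tested genes around Cdh3 and Cdh1, drawn as bars from gene start to gene end by their distance in kb from the start of Cdh3 (x axis); red bars have an adjusted p under 0.05. Cdh3 (0.38), Cdh1 (0.29) and Zfp90 (0.21) are red, and the 5 other genes lie between -0.02 and 0.13.

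Cdh6 was called higher with cyproheptadine. Its values were 2.33, 2.45 and 2.50 against 2.23, 2.24 and 2.30 with vehicle, so that all treated samples lay above the vehicle samples, and the difference was 0.17 on the log2 scale (SE 0.054, limma adjusted p = 0.0144). The difference on collection days 2 and 3 was 0.22 and 0.11. This call depends on single samples, since the limma adjusted p was 0.0606 without replicate 2 and 0.0955 without replicate 3 of cyproheptadine and 0.0507 without replicate 2 of the vehicle control. In a fit restricted to the 6 samples compared it was 0.144. The cyproheptadine mean, 2.43 ± 0.09 (SD, n = 3), lay 0.13 above that of the next condition, loxapine, which exceeds the SD of each although their samples overlapped. The other conditions had means from 2.15 ± 0.01 (DOP) to 2.30 ± 0.07 (loxapine), and each overlapped its neighbour.

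By their metabolite profiles, the study sorts 5 compounds into groups. Pizotifen, loxapine and cyproheptadine are its Group A, and meclizine and DKI its Group B. The contrast between these groups shares no sample with the contrast between the lines, but the members were chosen with earlier results of these data known, so it is not independent of that choice. N-cadherin RNA was higher in Group A. Over the 9 samples of Group A, Cdh2 had a lowest value of 10.11, a median of 10.24 and a highest of 10.41, and over the 6 samples of Group B 9.88, 9.99 and 10.14. The groups overlapped slightly, with 8 of 9 Group A samples above all Group B samples. The log2 difference was 0.23 (SE 0.052, 95% interval 0.12 to 0.34, adjusted p = 0.000458, limma), and 9 of 9 Group A samples lay above the Group B mean. Within collection days 1, 2 and 3 it was 0.28, 0.17 and 0.25. It was called with each of the 48 samples left out in turn, at 0.20 to 0.26, the highest value being that without replicate 1 of DKI. Over all genes tested, 19.9% were called higher and 21.4% lower in Group A.

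Cdh11 differed in the same direction, with Group A samples between 5.29 and 5.94 (median 5.77) and Group B samples between 5.17 and 5.65 (median 5.46). By compound, the Group A means were 5.83 ± 0.05 for loxapine, 5.75 ± 0.16 for pizotifen and 5.57 ± 0.27 for cyproheptadine, and the Group B means 5.56 ± 0.15 for DKI and 5.36 ± 0.17 for meclizine (SD, n = 3 each). Cyproheptadine and DKI thus overlapped, with means 0.018 apart. Its log2 difference was 0.26 (SE 0.094, limma adjusted p = 0.0238), and 8 of 9 Group A samples lay above the Group B mean. Within collection days 1, 2 and 3 it was 0.24, 0.17 and 0.33. This call was lost without any of 4 samples, replicate 1 of cyproheptadine (adjusted p = 0.0646), replicate 3 of DKI (0.0847), replicate 3 of meclizine (0.0937) and replicate 3 of pizotifen (0.0614). Cdh3 was lower in Group A, with samples between 2.59 and 2.77 (median 2.69) against 2.70 to 2.86 (median 2.78), a difference of -0.10 (SE 0.035, limma adjusted p = 0.0175) with 9 of 9 Group A samples below the Group B mean and values of -0.17, -0.05 and -0.10 within the 3 days. It was not called without replicate 1 of DKI (adjusted p = 0.0614) or replicate 1 of meclizine (0.0574). The remaining 4 tested members did not pass, Cdh13 at 0.11 (adjusted p = 0.0895), Cdh6 at 0.08 (0.0540), Ctnnb1 at 0.07 (0.0806) and Cdh1 at -0.02 (0.642). Of these, Cdh6 was called without replicate 1 of cyproheptadine (limma adjusted p = 0.0184), replicate 2 of DKI (0.0214), replicate 3 of loxapine (0.0220), replicate 2 of meclizine (0.0227), replicate 1 of pizotifen (0.0451) or replicate 2 of pizotifen (0.0135), and with no day term (0.0480). Within collection days its differences were -0.01, -0.01 and 0.18. Cdh13 was called without replicate 1 of meclizine (limma adjusted p = 0.0411), replicate 3 of pizotifen (0.0470) or replicate 1 of STHdhQ7 vehicle (0.0434), and, just under the threshold, in a fit restricted to the samples compared (0.04999). Ctnnb1 was called without replicate 2 of DKI (limma adjusted p = 0.0395) or replicate 2 of selisistat (0.0382). The 3 calls of 7 members pool both directions and stand beside 5542 of 13409 genes called in either direction, 19.9% higher and 21.4% lower. That is a similar share, and nothing particular to the members is read from the count.

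Of the 8 marker lists, those of neural progenitors and fibroblasts had the highest sums, and both had higher medians in Group A. The summed linear level of the neural progenitor markers had a median of 43005 in Group A and 35451 in Group B, with ranges of 35486 to 48025 and 28418 to 38608. For the fibroblast markers the medians were 34244 and 27089, with ranges of 26204 to 40857 and 21223 to 29165. Vim and Col1a1 were the most abundant genes of these lists. Neuron markers had the other direction, with medians of 273 in Group A and 332 in Group B, as had leukocyte markers, at 1123 and 1314. The medians were 1413 and 1282 for epithelial, 370 and 351 for endothelial, 912 and 903 for striatal neuron and 132 and 136 for glial markers, and the ranges of both groups overlapped for each list. Fewer cells of a type and less RNA per cell cannot be told apart in bulk samples, and the part of these markers in the cadherin differences was not tested.

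Cdh2 was also lower with meclizine and trichostatin A, and Cdh11 with meclizine, in a comparison of single compounds that uses no vehicle sample. Against vehicle these were not called. Cdh2 was then at -0.15 with meclizine (limma adjusted p = 0.185) and -0.16 with trichostatin A (0.192), and Cdh11 at -0.29 with meclizine (0.14). Meclizine and trichostatin A were collected at the same days and times as fingolimod phosphate and haloperidol, and against the mean of those, Cdh2 fell by 0.27 with meclizine (SE 0.070, limma adjusted p = 0.00262) and by 0.29 with trichostatin A (SE 0.070, limma adjusted p = 0.00399). With replicate 2 of haloperidol left out, these differences were -0.21 (adjusted p = 0.0124, limma) and -0.22 (adjusted p = 0.0156, limma). Cdh11 was lower with meclizine by the same measure, at -0.42 (adjusted p = 0.00975, limma) and, without that library, -0.30 (adjusted p = 0.0442, limma). With trichostatin A it was not called, at -0.14 (limma adjusted p = 0.527) and, without the library, -0.02 (0.938). In these comparisons 28.8% of all genes were called for meclizine and 14.4% for trichostatin A, and 26.9% and 13.1% without the library. Leaving it out was chosen after its values had been seen. The Cdh2 means of the comparators, 10.34 for haloperidol and 10.23 for fingolimod phosphate, lay above the 10.16 of vehicle. Summed marker levels moved in the same comparison. Progenitor sums, which Vim dominates, were at 36778 to 38608 with meclizine and 37210 to 39758 with trichostatin A, below the 43397 to 48554 of fingolimod phosphate and haloperidol. Fibroblast sums were at 28558 to 29165 with meclizine against 37498 to 44301. The epithelial, glial, leukocyte, neuron and striatal neuron sums of meclizine also lay below those of both comparators, and its endothelial sums overlapped. With trichostatin A the striatal neuron sums were lower as well, and the other 6 lists overlapped. The part of these markers in the Cdh2 and Cdh11 values was not tested.

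Whether the members varied among the 14 compounds at all was tested with a moderated F test with 13 numerator degrees of freedom, in which no vehicle sample enters. Of the 7 members, 6 were called with limma, Cdh1, Cdh2, Cdh3, Cdh6, Cdh11 and Ctnnb1, and Cdh13 was not (adjusted p = 0.0697). Cdh13 was called without replicate 1 of meclizine (limma adjusted p = 0.0458), of selisistat (0.0181) or of STHdhQ7 vehicle (0.0102), without replicate 3 of STHdhQ7 vehicle (0.0451) or replicate 2 of sodium butyrate (0.0475), and in a fit restricted to the compounds (0.0158). Over all genes tested, 80.4% were called, so that such a call is the usual outcome in this table. The adjusted p was 9.27e-07 for Cdh3, 6.61e-06 for Ctnnb1, 1.05e-05 for Cdh1, 0.000919 for Cdh2, 0.00180 for Cdh11 and 0.00267 for Cdh6. Without replicate 2 of haloperidol it was 0.00127 for Cdh2 and 0.00172 for Cdh11.

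Genes with patterns most like those of the high members were found by the correlation of condition means, with the collection day removed, over the 15 STHdhQ111 conditions among 2956 genes whose mean was 6 or more and whose condition means spanned 0.5 or more. For Cdh2, whose own range was 0.34, Pearson's r was 0.87 for Efnb2, the gene of ephrin-B2, 0.82 for Fmn1, a formin gene, and 0.81 for Lats2, a kinase gene of the Hippo pathway. The lowest were -0.83 for Rps20 and -0.81 for 1700021F05Rik. Without replicate 2 of haloperidol the range of Cdh2 was 0.28, and the same genes had r of 0.93, 0.85, 0.88, -0.82 and -0.79. For Ctnnb1 they were 0.83 for Loxl2 (listed together with Gm21451), 0.81 for Tinagl1 and 0.78 for Adgre5, and -0.83 for Akap8l and -0.77 for Gclm. For Cdh13 the values included 0.67 for Plpp5 and 0.66 for Snx7, and the lowest were -0.69 for Ces1a and -0.63 for Nhsl2. The points share libraries and 1 normalization, and these values are descriptions with no test. The genes were picked as the ends of 2956 sorted by r over 15 conditions, and such sorting alone gives high values. Nothing is read from what these genes do.

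Genes of the cadherin complex were described from lists chosen with earlier results of these data known. The contrast between the lines was among those results. Its p-values and calls for genes of this and the following lists are therefore not independent of that choice and serve as description. Genes named for the largest rise or fall were also picked by their values. Of 14 catenins and linkers, 13 were in the table and 10 were tested. In Group A against Group B, 6 of the 10 were higher, 0 lower and 4 not called, with a median log2 difference of 0.13 beside -0.002 over all genes, of which 19.9% were called higher and 21.4% lower. The largest was that of Vcl, the gene of the actin linker vinculin, at 0.42 (SE 0.047, limma adjusted p = 2.20e-09), and Jup, the gene of plakoglobin, differed by 0.36 (adjusted p = 3.47e-07, limma). Against vehicle, 9 of the 10 fell with cyproheptadine (median -0.26), 8 with DKI (median -0.36) and 7 with meclizine (median -0.24). With these compounds 0 rose, beside 18.2%, 21.9% and 13.6% of all genes called lower. With loxapine and pizotifen, the other compounds of Group A, 2 fell with each. The number was 5 for trichostatin A, 2 each for cysteamine and nicotinamide and 1 for nortriptyline. With DOP 5 fell and 1, Zyx, rose, and 0 fell with haloperidol, fingolimod phosphate and selisistat. The shares of all genes called for these compounds are given above. The genes of p120-catenin, Ctnnd1, and of the junction scaffold ZO-1, Tjp1, were each lower for 9 of 14 compounds, the most of the list. They were named after their values had been seen. Over all genes, the share called per compound in either direction ran from 0% for haloperidol to 42.3% for DKI. The remaining genes of the 10 were lower for between 1 (Zyx) and 6 compounds (Jup and Vcl). With sodium butyrate 5 fell (3 without replicate 1 of that compound) and 1, Zyx, rose. The number that rose was 0 without replicate 1 or 2 of vehicle or replicate 2 of sodium butyrate, and 2 without any one of 10 samples of other conditions. Over all genes 19.6% rose and 17.8% fell with sodium butyrate. Between the lines 2 were higher in STHdhQ7 cells and 1 lower, Plekha7 at 0.91 (SE 0.096, limma adjusted p = 2.04e-10) being the largest rise and Zyx at -0.40 (limma adjusted p = 7.11e-08) the fall. The number lower was 2 when replicate 3 of vehicle or any STHdhQ7 sample was left out. Over all genes 29.2% were higher and 26.6% lower in STHdhQ7 cells.

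Of 11 other classical cadherins 9 were in the table, and 2 of them, Cdh18 and Cdh24, reached the minimum. Cdh24 was higher in STHdhQ7 cells, with samples at 8.53, 8.73 and 8.62 against 8.13, 8.13 and 8.17 and a difference of 0.48 on the log2 scale (SE 0.065, limma adjusted p = 5.32e-08), and Cdh18 was at 0.05 and not called, beside 29.2% of all genes called higher and 26.6% lower. Neither passed the threshold between Group A and Group B, where 19.9% of all genes were called higher and 21.4% lower, although 1 of them did without replicate 2 of DKI, replicate 1 of loxapine, replicate 1 of meclizine, replicate 2 of STHdhQ7 vehicle or replicate 1 of trichostatin A. Both were called lower with cyproheptadine and with DKI, and Cdh18 was also called lower with meclizine and higher with trichostatin A. Over all genes 18.2%, 21.9% and 13.6% were called lower with cyproheptadine, DKI and meclizine, and 6.41% higher with trichostatin A. The 7 untested genes had means from -2.34 (Cdh7) to 0.88 (Cdh22). Cdh22 was at 1.32, 1.57 and 1.69 in STHdhQ7 and at 0.86, 0.82 and 0.78 in STHdhQ111 vehicle samples, a difference that was not tested.

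Among 14 genes of cadherin cleavage and turnover, all tested, 5 were higher in Group A than in Group B, 2 were lower and 7 were not called, with a median of 0.06. Over all genes the shares were 19.9% higher and 21.4% lower. The 5 became 3 without replicate 3 of DKI, and the 2 became 1 without replicate 1 of DKI. Rab5a, of early endosomes, was the largest rise at 0.19 (adjusted p = 0.000524, limma), and Psen2, a catalytic gene of gamma-secretase, the largest fall at -0.23 (adjusted p = 0.000198, limma). Between the lines 6 were higher in STHdhQ7 cells and 1 lower, beside 29.2% and 26.6% of all genes, with a median of 0.11. They ranged from Mmp14, a membrane-bound metalloproteinase, at 0.61 (adjusted p = 3.49e-10, limma) to Cbll1, the gene of the ubiquitin ligase Hakai, at -0.24 (limma adjusted p = 0.0216), and 0 were lower without replicate 2 of vehicle or replicate 1 or 3 of STHdhQ7. Adam10, which sheds the outer part of N-cadherin, was at -0.06 between the lines and 0.003 between the groups, and was called in neither. With sodium butyrate 4 of these genes fell (1 without replicate 1 of sodium butyrate) and 1 rose (0 without replicate 1 or 2 of vehicle or replicate 2 of sodium butyrate), beside 17.8% and 19.6% of all genes.

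Transcription factors known for switching cells between E-cadherin and N-cadherin were described next. Of 13 genes, 11 were tested, and Grhl2 and Ovol1, factors of epithelia, had means of -0.77 and -1.86. In STHdhQ7 cells 3 were higher and 4 lower, beside 29.2% and 26.6% of all genes, and nothing particular to the list is read from these counts. Zeb2 was at 7.63 ± 0.02 against 6.60 ± 0.09 (SD, n = 3 each) and so higher by 1.03 (SE 0.083, limma adjusted p = 1.61e-13). Snai2 was at 7.09, 7.36 and 7.42 against 8.40, 8.33 and 8.30, a difference of -1.06 (SE 0.080, limma adjusted p = 2.53e-14). In Group A against Group B 4 were higher (2 without replicate 1 of DKI or replicate 2 of pizotifen) and 2 lower, beside 19.9% and 21.4% of all genes, from Snai1 at 0.24 (adjusted p = 0.000255, limma) to Snai2 at -0.42 (adjusted p = 1.88e-08, limma). With sodium butyrate 3 rose and 0 fell, beside 19.6% and 17.8% of all genes, and Twist2 had the largest rise, at 0.57 (adjusted p = 1.26e-06, limma).

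Of 12 genes of the beta-catenin destruction complex and its regulators, all tested, 1 was higher in Group A than in Group B (Axin2, 0.19, adjusted p = 0.00199, limma) and 2 were lower (Axin1, -0.19, adjusted p = 0.000191, limma, and Gsk3b), beside 19.9% and 21.4% of all genes. Between the lines 4 were higher in STHdhQ7 cells, led by Dvl2 at 0.32 (adjusted p = 1.82e-05, limma), and 6 lower, led by Amer1 at -0.31 (limma adjusted p = 0.00155). Over all genes 29.2% were higher and 26.6% lower. The 6 became 2 without replicate 1 of STHdhQ7, the sample that also had the lowest Cdh2 and Cdh11 of its line. With sodium butyrate 4 fell and 1, Csnk1e, rose, beside 17.8% and 19.6% of all genes. Apc, the scaffold of the complex, had the largest fall, at -0.41 (adjusted p = 6.20e-05, limma).

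Of 16 target genes of Wnt and beta-catenin, 13 were tested. In Group A against Group B 7 were higher, 2 lower and 4 not called, with a median of 0.13, beside 19.9% higher and 21.4% lower over all genes. The 2 became 1 without replicate 1 of cyproheptadine, replicate 3 of DKI, replicate 2 of meclizine or replicate 1 of pizotifen. The cyclin gene Ccnd1 had the largest rise at 0.35 (SE 0.087, limma adjusted p = 0.00110) and Myc the largest fall at -0.69 (SE 0.074, limma adjusted p = 1.15e-09). Between the lines 6 were higher in STHdhQ7 cells and 2 lower, with a median of 0.23, beside 29.2% and 26.6% of all genes. Ccnd1 was at 10.51, 10.62 and 10.70 against 8.30, 8.27 and 8.34, a difference of 2.31 on the log2 scale (SE 0.14, limma adjusted p = 1.26e-17). Sox9 was at 7.66, 7.74 and 7.73 against 9.60, 9.52 and 9.54, one of -1.84 (SE 0.075, limma adjusted p = 1.90e-22). With sodium butyrate 5 rose (3 without replicate 3 of vehicle) and 0 fell, beside 19.6% and 17.8% of all genes.

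**Figure D5:**
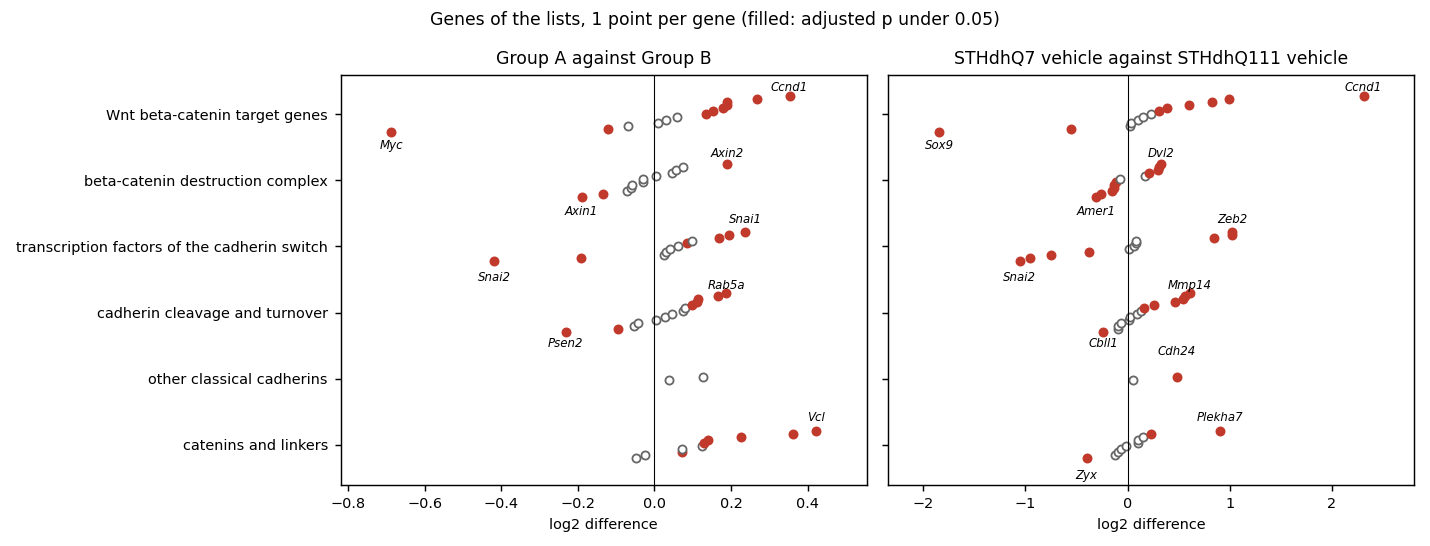
Log2 differences (x axis) of the tested genes of 6 lists (y axis), for Group A against Group B and for STHdhQ7 against STHdhQ111 cells with vehicle, with 1 point per gene and filled points for an adjusted p under 0.05; the x axes differ, and the called genes at both ends of a list are named. Vcl (0.42) and Myc (-0.69) lie farthest out between the groups of compounds, and Ccnd1 (2.31) and Sox9 (-1.84) between the lines.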

How the data were processed

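RNA of 48 samples was analysed, 3 of each of 16 conditions, grouped by their labels. The authors trimmed adapters with Trimmomatic 0.36, used RSEM with the GENCODE transcriptome of GRCm38.p5 for alignment and quantification, and tested with DESeq2 and collection day as batch. They deposited 1 normalized value per gene and sample, read here as log2 values since they run from -2.34 to 18.62 and their linear sums differ little between samples. The transformation is not given in the sources used here. Values were used as deposited.

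Genes with a symbol and a mean of at least 1 were tested, 13409 of 18178. A linear model with 16 conditions and collection day was fitted with limma 3.58.1 in R 4.3.3 (moderated variances with a trend, 30 residual degrees of freedom), and two-sided p-values of each comparison were adjusted over all genes tested (Benjamini-Hochberg) and called under 0.05. The procedure was tested on simulated data. The 9 members and the gene lists were chosen with earlier results of these data known. From each list, the text names the called genes with the largest rise and fall between Group A and Group B and between the lines; other list genes it names were chosen after their values were seen. Some genes are not reported here. Marker lists covered neural progenitors, striatal neurons, neurons, epithelium, endothelium, fibroblasts, glia and leukocytes. Positions and exon lengths come from GENCODE annotation of GRCm38. In the labels, replicate numbers equal collection days, but replicate 1 of DKI and replicate 1 of cyproheptadine are from day 3. Deviations of same-numbered samples from their condition means had a mean correlation of -0.0487, against 0.0245 for other numbers. Python 3.11.15 with matplotlib 3.10.9 made the plots. Alternatives were other filters, no collection day, a replicate block, collection time, rescaling by the median, no trend, only the samples compared, other comparators and leaving out each sample.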

Additional observations from a re-analysis of the deposited data

Results flagged for a closer look

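Among the 9 samples of Group A, replicate 3 of pizotifen was far from the others for Cdh13. It was at 9.30, and its gap to the nearest sample was 0.567 of the whole range of the group, which ran to 9.59. In groups of like samples chance gives about 1 such result in 20. Each of the 7 tested members was screened in Group A and in Group B, so a single flagged value is not unusual. The samples of a group also come from different compounds and days, so this rate is only a rough guide. The Cdh13 difference between Group A and Group B was 0.11 with this sample (adjusted p = 0.0895, limma) and 0.14 without it (adjusted p = 0.0470, limma). With single samples left out in turn, the difference ran from 0.08 to 0.15.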

How the results depend on the processing

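No called value changed its direction under the alternatives tried. With the replicate number as a block in place of the collection day, 6 pairs of member and compound, 3 members between Group A and Group B and 6 members among the 14 compounds were called, and no call of a member changed. No filter, no day term, collection time, rescaling by the median and no trend also left the number of compounds called for each member as it was.

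In a fit restricted to the samples compared, limma called 0 compounds for Cdh6, 2 for Cdh11 and 0 for Ctnnb1. The differences from vehicle were then -0.20 for Ctnnb1 with DOP (adjusted p = 0.0904), -0.16 with cyproheptadine (0.0735) and -0.21 with DKI (0.121), and 0.16 for Cdh6 with cyproheptadine (0.144). Between the groups it called 4 members, Cdh13 being the added one (0.11, adjusted p = 0.04999), and among compounds 7. Fewer samples enter that fit. With a minimum mean of 6, 3 of 42 pairs, 1 of 3 members between the groups and 2 of 3 members among compounds were called, since Cdh1, Cdh3, Cdh6 and Cdh11 were not tested there.

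Against comparators collected at the same days and times, 2 of 11 compounds were called for Cdh2, 0 for Cdh6 and 1 for Cdh11. Without haloperidol replicate 2, a choice made after seeing the data, it was 2 for Cdh1, 2 for Cdh2, 0 for Cdh6 and 2 for Cdh11. Over all genes, the share called against these comparators ran from 0% for haloperidol to 30.8% for sodium butyrate (30.7% without that library). Against the mean of the other 13 compounds, 16 pairs were called, 2 for Cdh2, 2 for Cdh3, 4 for Cdh11, 1 for Cdh13 and 5 for Ctnnb1 among them. Without haloperidol replicate 2 these were 14, 1, 2, 3, 1 and 5. With that comparator the share of all genes called ran from 3.97% for fingolimod phosphate to 48.6% for DKI. With the library left out it ran from 2.76% for haloperidol to 48.5% for DKI. The cause of the changes in member calls was not tested.

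With single samples left out, called compounds ranged from 0 to 1 for Cdh6, 0 to 1 for Cdh11 and 3 to 4 for Ctnnb1, pairs from 5 to 7, members between the groups from 2 to 5 and among compounds from 6 to 7. The difference between the groups ranged from -0.11 to -0.086 for Cdh3 and 0.21 to 0.31 for Cdh11, and that of Cdh6 with cyproheptadine from 0.13 to 0.22. The line differences ranged from 1.64 to 1.82 for Cdh2, 2.15 to 2.51 for Cdh11 and 0.58 to 0.81 for Cdh13.

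Counts over all genes moved more. In a fit restricted to the samples compared they went from 4780 to 3115 for cyproheptadine, 5673 to 3393 for DKI, 1755 to 1008 for trichostatin A, 1050 to 1718 for cysteamine, 513 to 217 for nortriptyline, 69 to 0 for selisistat, 8 to 592 for fingolimod phosphate and 0 to 1 for haloperidol. For selisistat it was 6 with a minimum mean of 6 and 38 with collection time, and for fingolimod phosphate 26 and 5, with 5 for no filter and 67 for no day term. Haloperidol had 1 with no filter. Against comparators of the same days and times it was 1416 in place of 2697 for DOP and 16 for cysteamine, and 0 for fingolimod phosphate, nicotinamide (1396 against vehicle) and nortriptyline. Against the other 13 compounds it was 4055 for DOP, 532 for fingolimod phosphate, 1782 for haloperidol (370 without its replicate 2), 1192 for nortriptyline, 2737 for selisistat and 2738 for trichostatin A. Without vehicle replicate 1 the count was 171 for cysteamine, 268 for nicotinamide, 76 for nortriptyline, 1715 for loxapine (2938 with it) and 1376 for pizotifen (2404 with it). It fell to 1540 without replicate 2 of DOP and to 744 without replicate 1 of trichostatin A, and for selisistat it ran from 0 without its replicate 2 to 1151 without its replicate 3. For fingolimod phosphate it ran from 0 without its replicate 3 or vehicle replicate 1 to 135 without vehicle replicate 3, and for haloperidol to 34 without its replicate 1. Depth is unknown, and its part in the low members could not be assessed.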
